A study of Mus musculus with 22 samples.

Results

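Saa1, Saa2, Saa3, Saa4, Lcn2, Hp, Orm1 and Cp are acute phase genes, and their transcripts were followed in a mouse lung epithelial cell line after exposure to carbon nanotubes. The members were found by matching the accession of each array probe to these symbols. All 8 genes had 1 probe each, among 20018 genes with a symbol on the array.

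Acute phase proteins are made in bulk by the liver during inflammation, and smaller amounts are made in other tissues, the lung included. Their transcription is driven mainly by interleukin-6 family cytokines through STAT3, by interleukin-1 and tumour necrosis factor through NF-kappaB, and by C/EBP factors, which act on their promoters. Serum amyloid A proteins travel on high-density lipoprotein, lipocalin-2 (Lcn2) withholds bacterial siderophores, haptoglobin (Hp) captures free haemoglobin, orosomucoid (Orm1) binds small lipophilic molecules, and ceruloplasmin (Cp) is a copper-carrying ferroxidase.

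FE1 cells derive from lung epithelium of a MutaMouse, a transgenic animal, so all values come from 1 line grown without the other cells of a lung. Cells were kept for 24 h with 0 (control), 12.5 (low dose), 25 (medium dose) or 100 µg/ml (high dose) of Mitsui7, multi-walled carbon nanotubes suspended in culture medium. RNA of 22 samples (5 controls, then 6, 5 and 6 in order of rising dose) was labelled with Cy5 and hybridised, each on its own array, with Universal Mouse Reference RNA, a pool of mouse cell line RNA, labelled with Cy3. A level is therefore a log2 ratio, sample over reference, for 1 probe, which compares samples but not genes. Cells were exposed in 3 separate experiments, and which arrays came from which is not given in the sources used here, so arrays of a group may share an experiment and p-values measure only the spread between these samples, which may be technical. The question asked here was whether acute phase transcripts, which are followed as markers of the lung's response to particles, changed in the epithelial cells alone.

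The arrays lay on 5 slides, and 23688 to 39139 probes per array were above the negative control level in Cy5. Slide was a term of the model. Only 16 of the 22 arrays were most like the other arrays of their own group, by the correlation of slide-adjusted ratios. Low dose replicate 1 resembled the medium dose arrays (r = 0.55 with their mean, -0.41 with that of its own group). Medium dose replicate 2 resembled the low dose arrays only weakly, but more than its own group (r = 0.16 against -0.36). Whether these samples were exchanged cannot be settled from the labels, and every low and medium dose value carries this doubt. For the members called, the values without both arrays are given beside the results. Leaving out these 2 arrays was chosen after seeing the data, so those values and their p-values are a description only. Of the other exceptions, low dose replicate 2 was most like the controls (r = 0.22 against -0.016), medium dose replicates 1 and 5 most like the high dose arrays (0.27 against 0.12 and 0.42 against 0.32) and high dose replicate 6 most like the medium dose arrays (0.64 against 0.40). Among 6 epithelial markers, Krt8, Krt18 and Krt7 were above the negative control level on all 22 arrays, Krt19 on 21, Cdh1, the epithelial cadherin, on 0 arrays and Epcam on 10. The mean log2 ratios of Krt8, Krt18 and Krt19 in controls were -4.35, -5.62 and -4.91, far below the reference. Of 4 lung secretory and alveolar markers, Nkx2-1 was above it on 0 arrays, Sftpb on 3, Sftpc on 17 and Scgb1a1 on 21. All 5 fibroblast markers (Col1a1, Col1a2, Pdgfra, Pdgfrb and Vim) were above it on all 22 arrays. Of the 5 hepatocyte markers, Alb and Apoa1 were above it on 0 arrays, Cyp2e1 on 19, Fga on 21 and Serpina1a on 22. Several of these signals lay close to that level, which was 74.3 to 119 over the arrays. In controls, Cy5 was 75 to 134.5 for Cyp2e1, 78 to 147 for Fga and 91 to 183.5 for Serpina1a. It was 72 to 102 for Sftpc and 87.25 to 120 for Scgb1a1. Being above the level therefore does not mean clear expression of these markers.

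Promoters of Saa1, Saa2, Saa3, Lcn2 and Cp are shown because C/EBP factors, whose transcripts changed in these cells, are known to act on acute phase promoters, and because Saa1 and Saa2 differ little there. The 250 bases before the RefSeq start (build GRCm38.p6) are printed 5′ to 3′ on the strand of the gene, with matches to the C/EBP motif TTNNGNAA, on either strand, in capitals. Cp has 2 listed starts, of which the more upstream is shown.
Saa1, chr7:46742981-46743230, minus strand: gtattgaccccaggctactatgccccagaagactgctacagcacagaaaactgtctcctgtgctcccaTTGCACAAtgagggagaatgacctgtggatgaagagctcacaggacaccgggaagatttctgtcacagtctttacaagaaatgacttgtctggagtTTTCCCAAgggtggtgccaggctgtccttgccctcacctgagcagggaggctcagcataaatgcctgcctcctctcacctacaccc
Saa2, chr7:46751583-46751832, plus strand: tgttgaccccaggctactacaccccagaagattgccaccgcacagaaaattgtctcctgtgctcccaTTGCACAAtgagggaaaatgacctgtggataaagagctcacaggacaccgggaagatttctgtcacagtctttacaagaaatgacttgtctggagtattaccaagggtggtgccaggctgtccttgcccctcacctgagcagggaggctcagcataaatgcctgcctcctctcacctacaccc
Saa3, chr7:46715677-46715926, minus strand: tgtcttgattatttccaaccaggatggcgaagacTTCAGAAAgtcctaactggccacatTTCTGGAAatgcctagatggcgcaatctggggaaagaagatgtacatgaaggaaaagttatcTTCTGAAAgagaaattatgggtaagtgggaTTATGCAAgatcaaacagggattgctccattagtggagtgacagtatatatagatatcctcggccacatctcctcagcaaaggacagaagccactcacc
Lcn2, chr2:32387740-32387989, minus strand: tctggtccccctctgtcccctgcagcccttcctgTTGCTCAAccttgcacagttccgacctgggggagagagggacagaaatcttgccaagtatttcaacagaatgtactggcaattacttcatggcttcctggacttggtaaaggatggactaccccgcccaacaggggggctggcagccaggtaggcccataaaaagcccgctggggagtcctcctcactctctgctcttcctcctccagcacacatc
Cp, chr3:19956804-19957053, plus strand: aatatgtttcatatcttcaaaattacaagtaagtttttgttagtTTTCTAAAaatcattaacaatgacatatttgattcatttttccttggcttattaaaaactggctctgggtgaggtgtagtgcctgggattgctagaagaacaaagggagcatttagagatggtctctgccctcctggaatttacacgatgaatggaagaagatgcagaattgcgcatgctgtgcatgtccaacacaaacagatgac

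The Saa1 and Saa2 stretches were 94.8% identical (238 of 251 aligned columns), against 50.2% for Saa1 and Saa3. Both hold the C/EBP match TTGCACAA, at position -182 from the start in Saa1 and -183 in Saa2. The Saa3 stretch holds 4 matches, Lcn2 and Cp 1 each. In windows of 300 bases, which run 50 bases past the start, the C/EBP motif was present in 40.7% of 32851 promoters, so a match is common. The NF-kappaB motif, GGG and CC with 5 bases between them, was present in 50.8% of promoters, with 1 match in each of the Saa1, Saa2 and Lcn2 windows and none in those of Saa3 and Cp shown here. The STAT motif TTCNNNGAA was present in 8.3% and had no match in these 5 windows. The window of the other Cp start, not printed, holds a C/EBP match at -70, an NF-kappaB match at -146 and no STAT match. A match is a match of letters only. Saa4, which lacked a clear signal on these arrays, is not printed; its window holds 2 C/EBP matches, 1 NF-kappaB match and no STAT match. Hp and Orm1 had no entry in the table.

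Of the 8 genes, Saa1, Saa3, Lcn2, Hp and Cp gave a signal that could be compared between groups, and Saa2, Saa4 and Orm1 did not. Saa3, Lcn2, Hp and Cp were above the negative control level in Cy5 on all 22 arrays, and Saa1 on 21. Saa2 was above it on 1 array, low dose replicate 6, where its Cy3 signal was raised as well (144, against a median of 32.25 over all arrays). Orm1 was above it on 6 arrays and marked well above background by the scanner on 0, and Saa4 on 10 and 2. For these 3 genes no fold change is given. RefSeq lists each of Saa1 and Saa2 as an older name of the other. Whether their probes tell the transcripts apart was not tested.

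**Figure D1:**
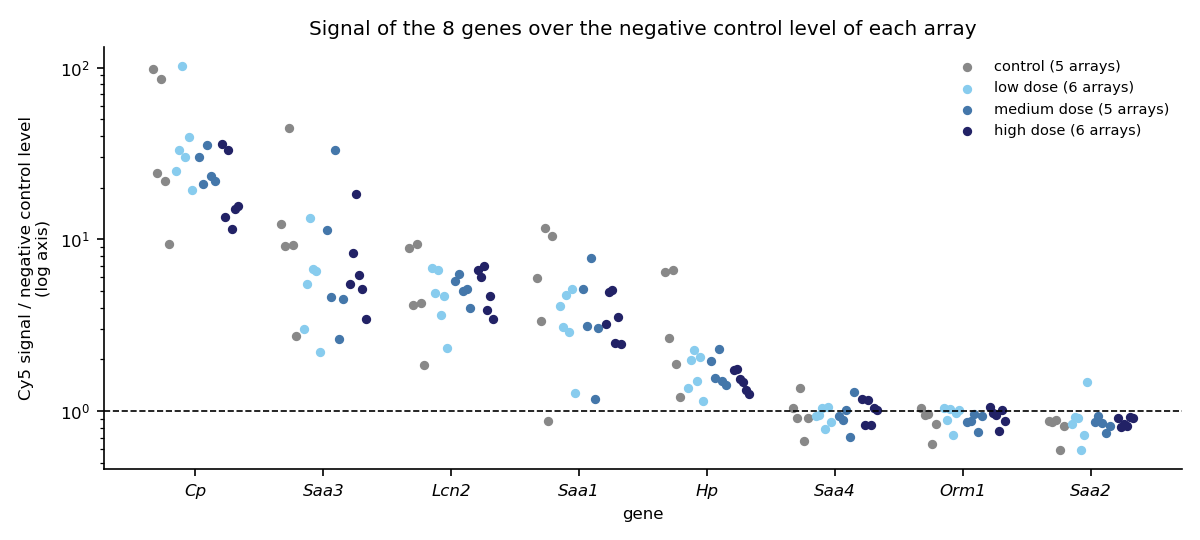
Cy5 signal of the 8 probes on each of the 22 arrays, divided by the negative control level of that array (log axis, dashed line at 1), by dose group. Saa4, Orm1 and Saa2 scatter around the dashed line, and the Hp signals at the 3 doses lie closer to it than most of the control signals. Signals of different probes cannot be compared with each other.

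To be called, a gene had to differ by 1.5-fold or more with limma's adjusted p no higher than 0.05, and its probe had to be detected on 4 or more arrays of 1 of the groups compared. Of 5 members detected at the low dose 0 were called, against 5.21% of all detected genes (2.18% higher and 3.03% lower). Unadjusted p was under 0.05 for 3 of them by limma, and an ordinary linear model called 0. At the medium dose 1 of 5 was called, Hp, which was lower, against 8.92% of detected genes (4.26% higher and 4.66% lower). Of 6 members detected at the high dose 2 were called, Hp and Cp, both lower, against 11.9% of detected genes (5.45% higher and 6.4% lower). The 6 include Saa4, above the negative control level on 4 of 6 high dose arrays, as do the 6 in comparisons between doses. No member was called higher at any dose. No test was made of these shares, and the results that follow are those of single genes.

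**Figure D2:**
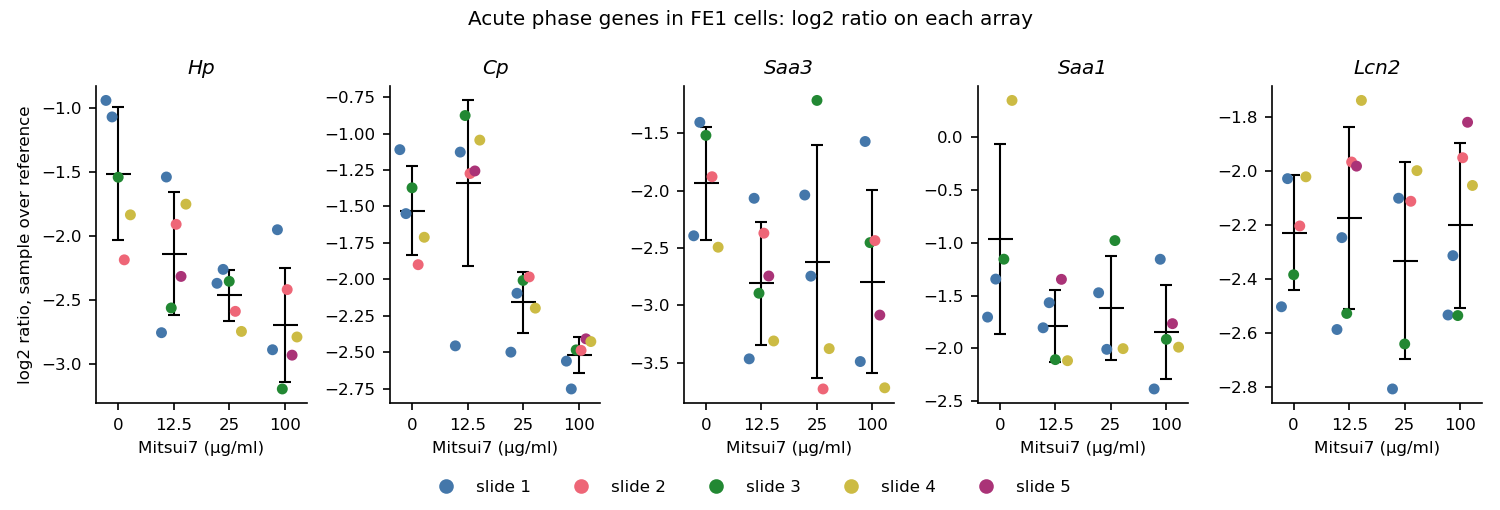
Log2 ratio of sample to reference for the 5 measurable genes on each array, by dose (µg/ml), coloured by slide, with the mean (bar) and SD (whiskers) of each group. Hp and Cp are lower at the high dose than in the controls, Lcn2 is level and the values of Saa3 spread widely within every group; Saa1 has no value on slide 2.

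Haptoglobin mRNA was lower at the medium and the high dose. In the controls, the log2 ratios of Hp were -0.94, -1.07, -1.54, -2.18 and -1.83. At the medium dose they were -2.37, -2.26, -2.35, -2.59 and -2.74, all below the lowest control. At the high dose they ran from -3.19 over a median of -2.84 to -1.95, and at the low dose from -2.75 over -2.11 to -1.54. The high dose arrays overlapped the controls by 1 array before slide was taken into account and by none after. The change at the high dose was -1.14 (SE 0.23, 95% interval -1.63 to -0.65, limma adjusted p = 0.00287), a level 2.20-fold lower, with 6 of 6 slide-adjusted arrays below every control. At the medium dose it was -0.95 (SE 0.24, limma adjusted p = 0.0211), with 5 of 5 arrays below. The medium dose call was lost in 11 of 39 alternative fits, for example without control replicate 3 (-0.88, adjusted p = 0.0788), whereas the high dose call held in all 39. At the low dose the change was -0.58 (SE 0.23, limma adjusted p = 0.238), and it was not called. Without low dose replicate 1 and medium dose replicate 2, the Hp changes were -0.37 (adjusted p = 0.49), -0.92 (0.0122) and -1.12 (0.000853) in order of dose; without slide 1 the low dose change was -0.23.

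The mean level of Hp was 35.1% of the reference in controls, and with rising dose 22.8%, 18.2% and 15.5%. Neighbouring doses in this order did not differ beyond their spread. The difference of medium from low dose was -0.37 (95% interval -0.86 to 0.12, limma adjusted p = 0.879) and that of high from medium dose -0.19 (95% interval -0.68 to 0.30, adjusted p = 0.9996). Between high and low dose it was -0.56 (adjusted p = 0.456), and -0.75 without the 2 arrays that resembled another group (adjusted p = 0.0971). The signal of Hp was low: its Cy5 intensity was 1.25 to 1.75 times the negative control level at the high dose and 1.22 to 6.60 times in controls. With no background subtracted, such a signal can understate a decrease. The scanner's own background-corrected ratio gave -1.62 at the high dose, normexp correction -1.13 and the authors' processed values -0.89.

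Ceruloplasmin mRNA was lower at the high dose and not called at the low dose. The controls had log2 ratios of Cp of -1.11, -1.55, -1.37, -1.90 and -1.71. The high dose arrays lay close together, from -2.75 over a median of -2.49 to -2.41, and all were below the lowest control. The medium dose arrays were at -2.50, -2.10, -2.01, -1.98 and -2.20, also all below the lowest control, and the low dose arrays ran from -2.46 over -1.19 to -0.88. Only low dose replicate 1 was low in that group; the next low dose value was -1.27. The change at the high dose was -1.01 (SE 0.20, 95% interval -1.43 to -0.59, limma adjusted p = 0.00218), a level 2.02-fold lower, with 6 of 6 arrays below every control. This call held in all 39 alternatives. At the medium dose the change was -0.63 (SE 0.21, limma adjusted p = 0.0913), which was not called. Without low dose replicate 1 and medium dose replicate 2, it was -0.65 and called (adjusted p = 0.00788). At the low dose it was 0.17 (SE 0.20, limma adjusted p = 0.797), and 0.41 without both arrays (adjusted p = 0.149). Without slide 1, which holds low dose replicate 1, it was 0.56 (adjusted p = 0.046), higher than in controls but by less than 1.5-fold.

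Cp was the only member called between doses. It was lower at the high than at the low dose by 1.18 on the log2 scale (SE 0.19, 95% interval -1.57 to -0.79, limma adjusted p = 0.00773), or 2.27-fold. In that comparison 1 of 6 detected members was called, against 0.442% of detected genes, of which 0.372% were lower. All 6 high dose arrays were below every low dose array after slide was taken into account. The call was lost with median centring (adjusted p = 0.907), in an ordinary linear model (0.0517), with only both groups in the model (0.0612) and without slide 3 (0.118), while the change stayed between -1.40 and -1.07 in all alternatives. Without low dose replicate 1 and medium dose replicate 2 it was -1.40 (adjusted p = 5e-05). Low dose replicate 1 had the lowest Cp value of its group, so leaving it out widens this difference by itself. From low to medium dose Cp changed by -0.80 (SE 0.20, limma adjusted p = 0.862), and from medium to high dose by -0.38 (SE 0.20, adjusted p = 0.9996). No member was called in either comparison by limma or by an ordinary linear model (0 of 5 and 0 of 6 detected, against 0% of detected genes in both), and unadjusted p was under 0.05 for 1 member from low to medium dose and for 0 from medium to high dose. Without low dose replicate 1 and medium dose replicate 2, Cp was called from low to medium dose.

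Within slides the direction of Cp and Hp at the high dose was the same on all 4 slides that held every group. The high dose differed from control in Cp by -1.33, -0.59, -1.11 and -0.72 on slides 1 to 4, and in Hp by -1.41, -0.23, -1.65 and -0.95. At the low dose Cp differed by -0.46 on slide 1, which holds low dose replicate 1, and by 0.63, 0.50 and 0.67 on slides 2 to 4. For Hp the low dose differences were -1.14, 0.28, -1.02 and 0.08, so that a lower level was seen on slides 1 and 3 only.

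**Figure D3:**
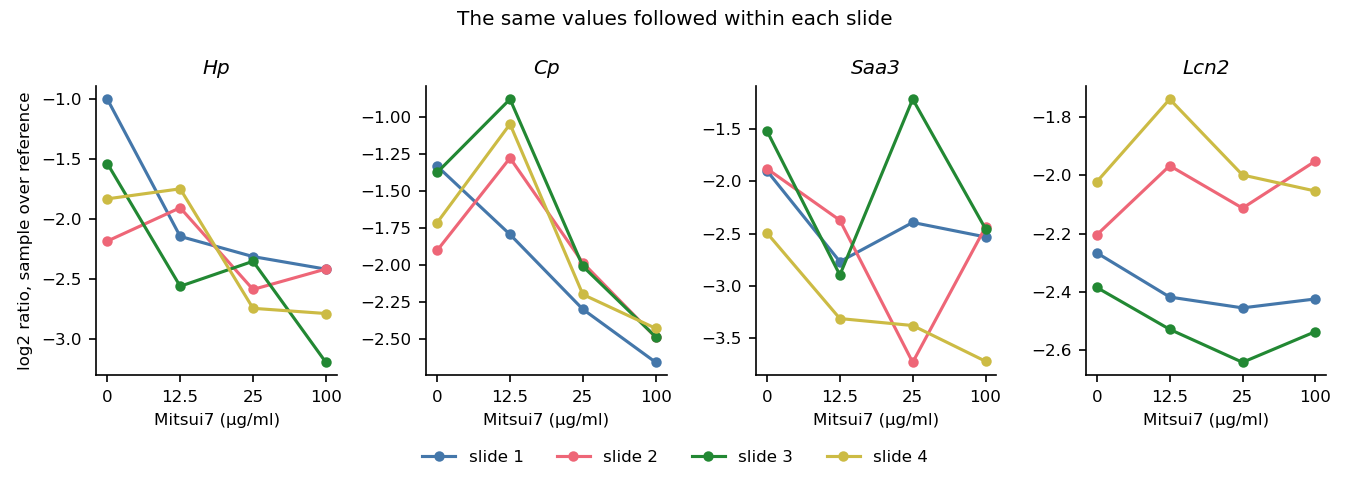
Log2 ratio of sample to reference by dose (µg/ml) within each of the 4 slides that hold all groups (slide 1: mean of the arrays of a group). Lines for Hp and Cp end lower at 100 µg/ml on every slide, Cp peaks at 12.5 µg/ml on slides 2, 3 and 4, Saa3 moves differently from slide to slide and Lcn2 stays within a narrow range.

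Saa3 and Saa1, the serum amyloid A transcripts with a measurable signal, were lower on average at each dose but were not called. Saa3 had log2 ratios of -2.39, -1.41, -1.52, -1.88 and -2.49 in controls. The medium dose values were -2.04, -2.75, -1.21, -3.73 and -3.38, and thus ran from above every control to well below. At the low dose Saa3 ran from -3.47 over a median of -2.82 to -2.07 and at the high dose from -3.72 over -2.77 to -1.57. The changes were -0.85 (95% interval -1.61 to -0.09), -0.68 (-1.46 to 0.09) and -0.83 (-1.59 to -0.07) in order of dose, with limma adjusted p of 0.282, 0.421 and 0.217. Without medium dose replicate 4 the medium dose change was -0.34, and with the authors' processed values it was -0.03. Without the 2 arrays that resembled another group, the changes were -0.64, -0.59 and -0.81. The upper limits of these intervals lie at or below 0.09, and the lower limits allow a decrease of more than 2-fold.

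Saa1 had no value on the 4 arrays of slide 2, where its spots were marked as outliers. Of the remaining controls, 3 had log2 ratios of -1.70, -1.34 and -1.15, and control replicate 5 was the highest at 0.35. The medium dose values were -1.47, -2.01, -0.98 and -2.002, the low dose values -1.80, -1.57, -2.11, -1.35 and -2.12, and the high dose values -2.38, -1.15, -1.91, -1.76 and -1.99. The changes were -0.89 (SE 0.33), -0.65 (SE 0.34) and -0.94 (SE 0.33), with limma adjusted p of 0.202, 0.405 and 0.109. Without control replicate 5 the Saa1 changes were -0.37, -0.13 and -0.42 in order of dose (limma adjusted p = 0.551, 0.896 and 0.449), and without medium dose replicate 5 the medium dose change was -0.42. Without slide 1 the changes were -1.61, -1.09 and -1.65. At the high dose, without control replicate 1 or high dose replicate 2 the change was called (-1.18 and -1.21). Within slide 1 it was -0.25 and within slide 4, which holds control replicate 5, -2.34.

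Lcn2 did not change detectably. Its log2 ratios were -2.50, -2.03, -2.39, -2.20 and -2.02 in controls and -2.81, -2.10, -2.64, -2.11 and -1.999 at the medium dose. They ran from -2.59 over a median of -2.12 to -1.74 at the low dose and from -2.54 over -2.18 to -1.82 at the high dose. All groups overlapped. The mean level was 21.3% of the reference in controls and 22.1%, 19.8% and 21.7% with rising dose. The 95% interval of the change was -0.26 to 0.25 at the low, -0.37 to 0.16 at the medium and -0.29 to 0.23 at the high dose (limma adjusted p = 0.994, 0.810 and 0.957). A change of 1.5-fold in either direction therefore lies outside the interval of this fit at every dose. These ratios had no background subtracted, and the lowest Cy5 signal was 1.85 times the negative control level (control replicate 5). Over all doses and all 39 alternatives, background-corrected ones included, the change stayed between -0.203 and 0.0923.

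**Figure D4:**
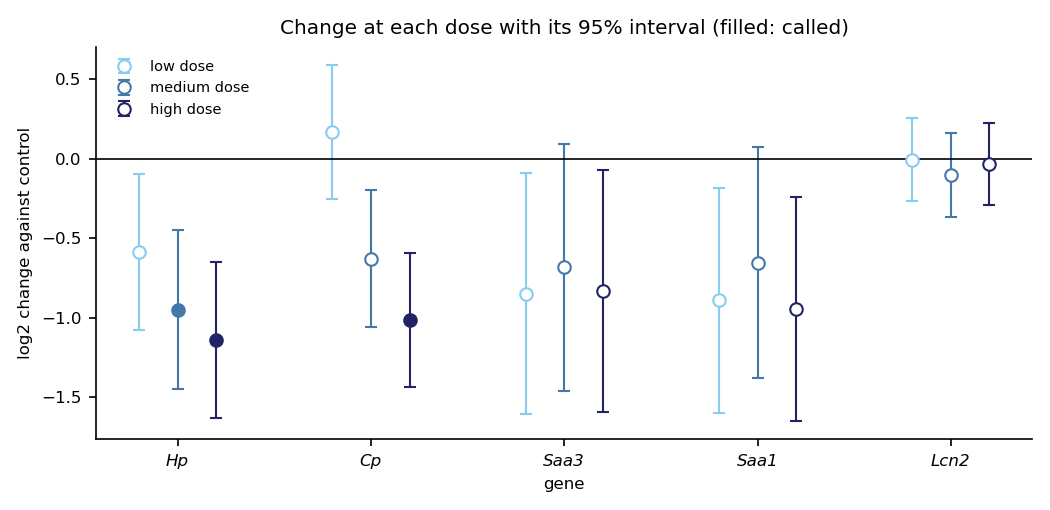
Log2 change against control, in order of dose, for the 5 measurable genes, with the 95% interval of limma's fit; filled points were called. The points of Hp move down from low to high dose, Cp is above 0 only at the low dose, the intervals of Saa3 and Saa1 are the widest and those of Lcn2 are centred near 0.

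The genes whose slide-adjusted ratio followed a member most closely were taken from the 8940 other genes detected on all 22 arrays, as a description. For Hp these were Olfml3 (r = 0.918 over 22 arrays), Septin4 (0.911) and Slit3 (0.908), and for Cp Itgb3 (0.938), Ch25h (0.924) and Slc7a2 (0.922). All 6 were themselves called lower at the high dose, where Olfml3 fell by 2.97 on the log2 scale. Lcn2 was closest to Irf2bp1 (0.940), Ube2m (0.918) and Cap1 (0.912), Saa3 to Efnb1 (0.830), Cirbp (0.812) and Zfr2 (0.792), and Saa1, over 18 arrays, to Eci1 (0.895), Sdhaf1 (0.892) and Ociad1 (0.887). Saa4, at the negative control level, was closest to Tfpi (0.831), Melk (0.821) and Ccl27a (0.819). Among the members, r was 0.756 between Hp and Cp, 0.749 between Saa1 and Saa3, 0.656 between Hp and Saa3 and 0.167 between Cp and Saa3. The arrays share the dose groups and the reference pool, so these values carry no test.

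Most markers of fibroblasts fell at every dose, the low dose included, where neither Hp nor Cp was called. Of the 5 markers 3 were called lower at the low dose and 4 at the medium and the high dose, the exception being Vim (0.14 at the high dose), against 3.03%, 4.66% and 6.4% of all detected genes. Their summed ratio to the reference ran from 6.60 to 9.17 in controls and, in order of dose, from 3.73 to 6.37, from 3.35 to 4.17 and from 2.27 to 4.15. The part of this in the decrease of Hp and Cp was not tested, and in bulk RNA fewer cells of a kind and less RNA per cell cannot be told apart. Of 4 epithelial markers detected at each dose, 0 were called at the low dose and 1, Krt7, at the medium and high dose. Krt7 was lower (-0.79 and -0.85, limma adjusted p = 0.000256 and 4.96e-05), against the same shares of all detected genes. The summed ratio of the 6 epithelial markers ran from 1.28 to 2.66 in controls and from 1.18 to 1.73 at the high dose. Leukocyte and macrophage markers gave 0 calls among 5 detected genes at every dose, against 5.21%, 8.92% and 11.9% of all detected genes. With so few genes, 0 calls do not show a lack of change. Itgam and Csf1r were above the negative control level on 22 arrays, Ptprc on 21, Marco on 20, Adgre1 on 19 and Lyz2 on 6. The Cy5 signals of Ptprc, Marco and Adgre1 in controls were low, at 90 to 206, 79 to 150 and 71 to 138. The 2 neutrophil markers detected, Elane and Mpo, also gave 0 calls and were above this level on 22 and 20 arrays. S100a8 and S100a9 were above it on 1 array each.

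The other genes of the acute phase were read as 4 lists (further acute phase proteins, negative acute phase proteins, regulators, and receptors or partners of the members). Among the 35 further acute phase genes reported here 31 had a probe, and most of them lacked a signal: 14 were detected at the low dose and 13 at the medium and high dose. Of these, 3, 4 and 4 were lower in order of dose, against 3.03%, 4.66% and 6.4% of all detected genes. The median log2 change over these genes was -0.03 with the high dose, against 0.01 over all detected genes. Lbp, which carries endotoxin to its receptor, fell at every dose, by 1.08, 1.16 and 1.12 (limma adjusted p = 8.09e-05, 2.84e-05 and 1.69e-05). The complement component C3 fell by 0.92, 1.19 and 1.20 (adjusted p = 0.00319, 0.000221 and 9.01e-05), and the metal-binding metallothionein Mt1 fell by 0.86, 1.39 and 1.21. Mt2 was called at the medium and high dose only (-1.01 and -0.99). In each of these calls at the high dose, all 6 slide-adjusted arrays lay beyond every control in the direction of the change. Serpina3n, a protease inhibitor of the acute phase, was above the negative control level on 1 array.

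Negative acute phase genes, whose products fall in plasma during inflammation, were mostly without signal as well, with 4, 3 and 4 of 10 detected. Trf, the iron carrier transferrin, was the only one called and fell by 1.61, 2.10 and 2.73 (limma adjusted p = 0.00189, 9.98e-05 and 1.87e-06). Among all detected genes, 3.03%, 4.66% and 6.4% were called lower in order of dose. The median of the negative acute phase list was -0.36 at the high dose.

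Regulators were better measured, with 29 of 34 detected at each dose, of which 2, 2 and 3 were higher and 2, 2 and 5 lower in order of dose. Of all detected genes 2.18%, 4.26% and 5.45% were higher and 3.03%, 4.66% and 6.4% lower. The list's median was -0.16 at the high dose. The 3 C/EBP factors moved apart. Cebpd, the C/EBP factor best known for its rise in the acute phase, fell by 1.08, 1.15 and 1.33 (limma adjusted p = 3.29e-05, 1.15e-05 and 6.84e-07), while Cebpa rose by 0.83, 0.77 and 0.92 (adjusted p = 0.000359, 0.000637 and 4.3e-05). Cebpb rose by 0.65 at the low and 0.69 at the high dose (adjusted p = 0.00357 and 0.000828) and was under 1.5-fold at the medium dose (0.57). The interleukin-1 receptor Il1r1 fell by 0.85, 0.80 and 1.22 (adjusted p = 0.032, 0.0372 and 0.000808); without low dose replicate 1 and medium dose replicate 2, its low and medium dose calls were lost (adjusted p = 0.0896 and 0.0633). At the high dose only, the oncostatin M receptor Osmr (-0.70), Stat3 (-0.68) and the tumour necrosis factor receptor Tnfrsf1a (-0.75) were called lower and Rela, an NF-kappaB subunit, higher (0.77). At the lower doses several of these passed the p threshold but were under 1.5-fold: Stat3 at both doses (-0.37 and -0.51, adjusted p = 0.0119 and 0.000604), Tnfrsf1a at both (-0.40 and -0.42, 0.0319 and 0.0175), Osmr at the medium dose (-0.53, 0.0121) and Rela at the low dose (0.58, 0.0475). Il6, the main inducer, had changes of 0.19, 0.06 and -0.09 (adjusted p = 0.608, 0.922 and 0.846). Its receptor subunit Il6st (-0.36 at the high dose, adjusted p = 0.494) and Nfkbiz (-0.59, adjusted p = 0.117) were not called, although Nfkbiz was called lower at the medium dose without low dose replicate 1 and medium dose replicate 2 (-0.76, adjusted p = 0.0419), and the feedback inhibitor Socs3 was under 1.5-fold (-0.53, adjusted p = 0.00115). Lif, a cytokine of the Il6 family, was called at the medium dose (0.60), a call lost in 10 of 39 alternative fits, the one without low dose replicate 1 and medium dose replicate 2 included. With the replicate block in place of slide it was also called at the low (0.61, adjusted p = 0.00973) and high dose (0.65, adjusted p = 0.00267).

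Receptors and partners of the members had 1 call at every dose, among 16, 17 and 15 detected genes of 21. Of all detected genes 5.21%, 8.92% and 11.9% were called in either direction, and 2.18%, 4.26% and 5.45% higher. The list's median was -0.09 at the high dose. The call was Hmox1, the haem oxygenase that acts after haptoglobin has delivered haemoglobin. It rose by 0.80, 1.14 and 1.28 (limma adjusted p = 0.023, 0.000984 and 0.000149). The haemoglobin-haptoglobin receptor Cd163 was above the negative control level on 2 arrays. These lists were chosen with results of these data known, and their counts are a description.

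**Figure D5:**
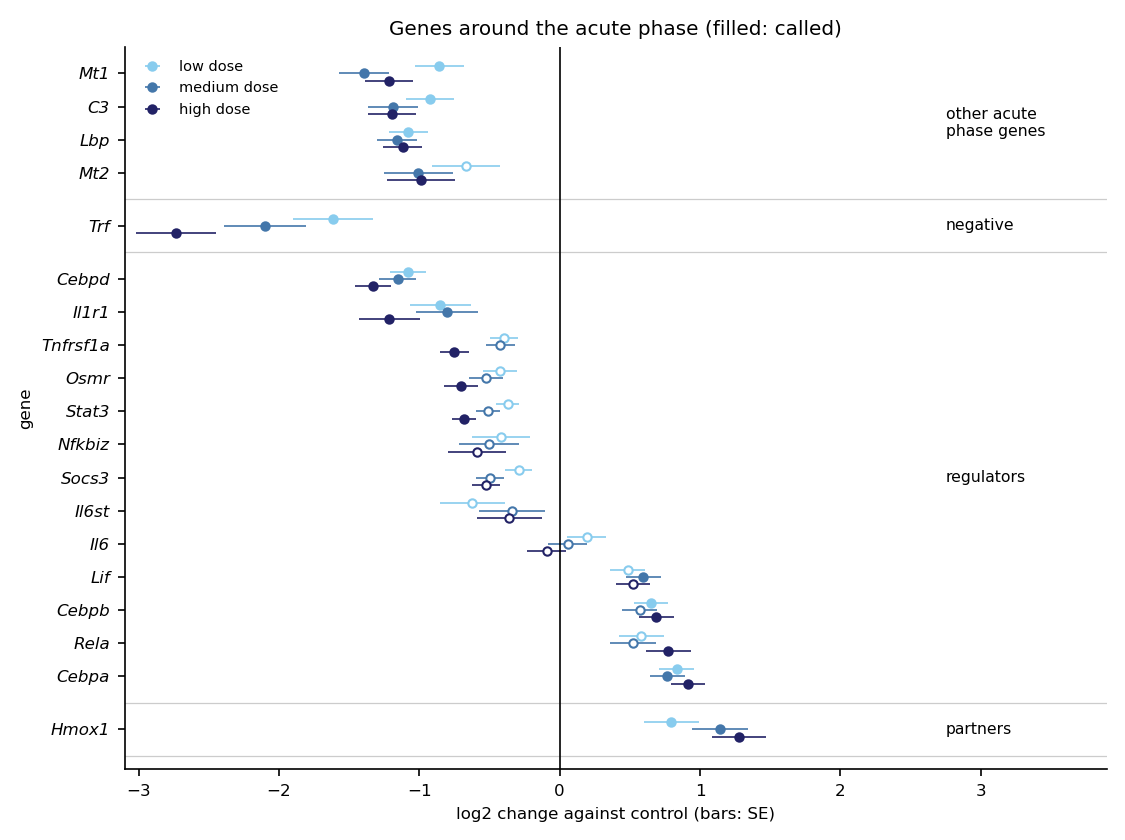
Log2 change against control, with its SE, at the 3 doses for the named genes of the 4 lists; filled points were called. Lbp, C3, Mt1, Trf, Cebpd and Il1r1 lie left of 0 and Cebpa and Hmox1 right of 0 with calls at every dose, while the points of Il6 lie around 0.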

How the data were processed

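Scanner files of 22 arrays of 62976 spots were used. The deposited values were median intensity per spot and channel and local background intensity, extracted by the authors with Feature Extraction 10.7.3.1 per the file headers, whose grid is on mm9. A deposited log10 ratio carries the scanner's own background and dye correction. The deposited series matrix has the authors' processed log2 ratios, whose normalization is not given in the sources used here. All arrays carried the sample in Cy5 with no dye swap, so a probe's dye bias cancels only in differences between groups.

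Control spots were dropped, outlier spots (non-uniform or population) were treated as missing, and log2(Cy5/Cy3) of uncorrected signals was loess-normalised array by array. Spots of a probe were combined by their median. Detection required a Cy5 signal more than 3 SDs above the mean of the 308 negative control spots, both trimmed by 5%. Symbols came from RefSeq (GRCm38.p6) for 26413 of 55681 probes, and a gene was read by its brightest probe. Groups were compared with limma 3.58.1 (R 4.3.3), with group and slide as terms over 22 arrays, as in the study's methods, but with limma's moderated test and its p-values in place of the shrinkage statistic and permutation p-values named there, and adjusted by Benjamini-Hochberg over all probes. The fit was tested on simulated data with independent errors, no missing values and known changes at the high dose only. Such data do not show how the fit behaves with exchanged arrays or with signals near background. Signal is not a count, and the number of arrays limits the precision.

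Deviations of same-numbered samples from their group means correlated by 0.197 to 0.796 over 31 pairs. Most of these pairs share a slide, slide was not removed, and samples of different number were not compared. Whether the numbers pair the samples therefore cannot be told from these values. The members and gene lists were chosen with earlier results of these data known. Named were all members, the called genes of each list with the 4 largest changes per direction at the high dose, 13 regulators and acute phase genes chosen by name, the 3 genes closest to each detected member, and examples without signal. A gene of the further acute phase list is not reported here. Alternatives covered background correction, normalization, slide, replicate number, outlier spots, thresholds, detection, and leaving out arrays and slides.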

Additional observations from a re-analysis of the deposited data

Results flagged for a closer look

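The log2 ratio of Cp at the low dose was far from the rest of its group on 1 array. Low dose replicate 1 was at -2.46 and the nearest low dose array at -1.27, a gap larger than Dixon's critical value allows for 6 arrays (gap over range 0.748). It was the only such value among 20 sets of member values, and chance alone gives about 1 in 20. The same array resembled the medium dose group over all probes (r = 0.55), and the cause was not tested.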

How the results depend on the processing

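In all, 39 other settings were fitted for each change, and 4 further thresholds for each count of called members. The decreases of Hp (-1.62 to -0.89) and Cp (-1.13 to -0.77) at the high dose kept their direction and their call in every fit, and the count of called members there was 2, or 3 without control replicate 1 or high dose replicate 2, where Saa1 was added. The low dose count and that between high and medium dose were 0 throughout. The medium dose count of 1 fell to 0 with median centring, an ordinary linear model, a 2-fold threshold and without slide 1, 3 or 4, and ranged from 0 to 2 when single arrays were left out (0 without control replicate 1, 2 or 3 or medium dose replicate 1, 4 or 5, and 2 without low dose replicate 1). The count between high and low dose fell from 1 to 0 with median centring, an ordinary linear model, only the groups compared and without slide 3. The count between medium and low dose was 0 to 1 when single arrays were left out (1 without low dose replicate 1). Leaving out low dose replicate 1 and medium dose replicate 2 together, chosen after seeing the data, gave 2 called members at the medium dose and 1 between medium and low dose.

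With the replicate block in place of slide, the changes at the high dose were -1.21 for Hp and -1.03 for Cp; it changed no call of a member, and among the named genes added a call for Lif at the low (0.61) and high dose (0.65). Each member has 1 probe, so averaging probes changes nothing. Among the named genes, 12 and 13 of 39 fits lost the low dose calls of Il1r1 and Hmox1, and 16, 10 and 10 the medium dose calls of Il1r1, Mt2 and Lif, single arrays among them; median centring lost the calls of C3 and Mt1 at every dose, of Cebpa and Cebpd at the low and medium dose, of Cebpb at the low and high dose, and of Stat3, Osmr, Tnfrsf1a and Rela at the high dose. The causes were not tested. Changes near 0 changed sign. For Lcn2 at the low dose (-0.0041) the changes were 0.00326 with outlier spots kept, 0.0325 with the authors' values, 0.0533 without slide, 0.0321 with slide as a random block, 0.0147 with only the groups compared, 0.0923, 0.0302 and 0.0147 without slides 1, 3 and 5, 0.0434 without both arrays that stand apart, and -0.0641 to 0.0861 when single arrays were left out. For Lcn2 at the high dose (-0.03) they were 0.0281 with the scanner's ratio, 0.0906 with the authors' values, 0.0271 without slide, 0.00581 with slide as a random block, 0.0562 and 0.000294 without slides 1 and 3, and -0.0903 to 0.0599 when single arrays were left out. Il6 at the high dose was 0.00782 with the scanner's ratio, 0.128 without slide 1 and -0.209 to 0.0455 when single arrays were left out; at the medium dose it was -0.00681 and -0.0204 without slides 2 and 3 and -0.0583 to 0.196 when single arrays were left out.

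Signal over background limits Saa2, Saa4 and Orm1, for which a change was not detectable on these arrays, and leaves Hp close to the negative control level at the doses. Missing spots on slide 2 limit Saa1.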
